A study of Mus musculus with 3 samples.

Results

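Keratins were examined in mouse otic placodes that lacked Fgf3 and Fgf10, with the type I keratin Krt23 as the gene of main interest. The set comprised 10 named keratin genes, Krt23, Krt8, Krt18, Krt7, Krt19, Krt20, Krt5, Krt14, Krt15 and Krt17, and every array probe whose gene name was one of them. It held 12 probes of 41174, because Krt8 and Krt7 had 2 probes each, and 9 of the 10 genes passed the signal filter that left 16850 genes. Krt23 was selected on its low log2 ratio in the comparison described here, and the other keratins were added as its family. Its values are therefore a description and carry no test.

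The samples were microdissected placodal ectoderm of mouse embryos at the 4 to 8 somite stage. One genotype was Fgf3-/-;Fgf10-/- (double null), and the other was Fgf3+/-;Fgf10+/- (double heterozygote), so the controls also carried 1 null allele of each gene. RNA came from 3 pools of each genotype with 10 placodes a pool, described by the labels as biological replicates, and a value therefore averages over 10 placodes. Each of 3 arrays carried 1 double null pool in Cy5 and 1 double heterozygote pool in Cy3. The dyes were never exchanged, so a dye effect of a probe and the effect of genotype cannot be told apart.

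Keratins are the intermediate filament proteins of epithelial cells. A filament is built from pairs of an acidic type I and a basic type II chain, so that neither kind forms filaments alone. Krt8 (type II) and Krt18 (type I) are the first keratins of the embryo and the usual pair of single-layered epithelia, which is what early head ectoderm is. Krt5 (type II) and Krt14 (type I) are the pair of the basal layer of stratified epithelia such as epidermis. The otic placode is a thickening of head ectoderm that forms the inner ear, and it is induced by fibroblast growth factors such as those encoded by Fgf3 and Fgf10.

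The Krt23 probe and 4 probes of simple-epithelial keratins are shown so that it can be seen how different in sequence they are. For Krt7 the second probe is printed, while the gene's value in counts and medians comes from the first, brighter one. All are 60-base oligonucleotides, printed from the 5′ end as the array files give them, with positions on the mouse build mm7. In the Krt23 probe, capitals mark a longest run of bases in common with another keratin probe of the set, here that of Krt19. Runs of equal length, such as those capitalized for Krt8 and Krt18, are not marked in it. In the other probes, capitals mark the longest run that also occurs in the Krt23 probe.
Krt23, chr11:99587118-99587177, minus strand: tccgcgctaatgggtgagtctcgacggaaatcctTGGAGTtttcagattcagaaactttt
Krt19, chr11:100250117-100250176, minus strand: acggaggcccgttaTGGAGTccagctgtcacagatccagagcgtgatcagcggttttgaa
Krt8, first probe, chr15:101983072-101983131, minus strand: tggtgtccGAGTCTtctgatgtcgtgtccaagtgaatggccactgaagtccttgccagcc
Krt18, chr15:102018067-102018126, plus strand: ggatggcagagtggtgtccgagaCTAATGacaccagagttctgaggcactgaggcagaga
Krt7, second probe, chr15:101409444-101409503, plus strand: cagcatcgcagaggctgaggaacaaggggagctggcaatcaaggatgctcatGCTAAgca
The longest run shared with the Krt23 probe was between 4 and 6 bases in the 11 other keratin probes. Among all 41173 other probes on the array the longest such run was 16 bases, in 1 probe. The Krt23 probe was placed once on each array and was the single probe for that gene, so no second probe or spot repeats its values. Whether it lies in coding sequence or in an untranslated region was not analysed here.

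Log2 ratios compare double null with double heterozygote pools, in that direction, after loess normalization within each array. A value of 0 means equal signal, and -1 means that the signal in the double null pool was 0.5 of the other. Intensities are normalized spot intensities in arbitrary units and are compared within a probe. Summed levels of gene lists compare the same probes between pools, and the brightest probes weigh most in them. The scanner software marked 27284 to 29177 spots of an array as well above background in double null pools, and 26452 to 28258 in double heterozygote pools. Across tested genes, which are not independent, the ratios of any array pair correlated at r = 0.391 to 0.469.

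Krt23 had the lowest mean log2 ratio of all 16850 genes tested. Its normalized intensity in the double null pools was 470.5 on array 1, 594 on array 2 and 641 on array 3, against 2918, 1325 and 2129 in the double heterozygote pools. The groups did not overlap, and the highest double null pool was below the lowest double heterozygote pool. Over all genes, 7.84% showed this pattern. The double heterozygote pools differed more among themselves than the double null pools did, and array 2 combined the lowest double heterozygote value with a middle double null value.

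The log2 ratios of Krt23 on the 3 arrays were -2.63, -1.16 and -1.73. Their mean was -1.84 ± 0.25 (moderated SE, n = 3; SD 0.74), which is a level of 0.279 times that in the double heterozygote pools. The scanner software's own log2 ratios, normalized separately by the authors' software, were -2.84, -1.29 and -1.85, each with a scanner error estimate between 0.236 and 0.334. All arrays thus gave a ratio below -1 by either normalization, and the arrays kept the same order. In pooled tissue, fewer cells with a transcript and less of it per cell cannot be told apart.

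The low signal was visible before any normalization. The unnormalized Cy5 intensity of the Krt23 spot was 707, 845 and 1006 in double null pools, against Cy3 intensities of 1715, 865 and 1514 in double heterozygote pools. Cy5 was generally the brighter channel on these arrays, with a median unnormalized ratio of 2.34 over all tested genes and the 3 arrays. For Krt23 this ratio was 0.412, 0.977 and 0.664, whereas in the other 8 tested keratin genes it ran from 1.58 to 3.22. Krt23 was the 1 gene among all tested, 0.00593% of them, whose unnormalized Cy5 signal was below Cy3 on all 3 arrays. Since Krt23 was selected on the ratio of these signals, its place among all genes is a description. Across arrays the unnormalized groups overlapped, as the double null value of 1006 on array 3 was above the double heterozygote value of 865 on array 2.

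Genes of similar brightness give a scale for this value. The 955 tested genes whose mean log2 intensity was within 0.25 of that of Krt23 had a median log2 ratio of 0.01, and the middle 80% of them ran from -0.14 to 0.15. After Krt23, the lowest mean log2 ratios among genes with a name were those of Dusp16 at -1.02, Hmx3 at -1.01 and Kifc5b at -0.88. The Krt23 spot exceeded background in both genotypes on every array, so its ratio is not a bound.

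**Figure D1:**
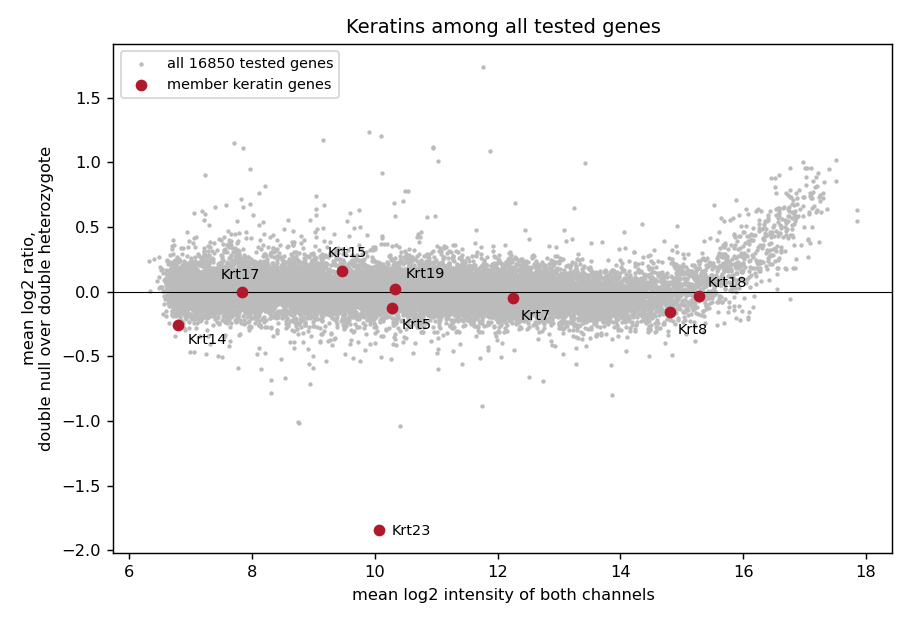
Mean log2 ratio (double null over double heterozygote, vertical axis) against mean log2 intensity of both channels (horizontal axis) for all 16850 tested genes in grey and the 9 tested keratin genes in red. Krt23 lies alone at -1.84, and the other keratins lie between -0.26 and 0.16, while the brightest genes at the right bend upward.

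The tested keratins of single-layered epithelium, Krt8, Krt18, Krt7 and Krt19, had mean log2 ratios between -0.16 and 0.09 over their 6 probes. The first Krt8 probe had 24475, 28827 and 28355 intensity units in the double null pools, against 32475, 28082 and 30595 in the double heterozygote pools. The groups overlapped, since the double null pools of arrays 2 and 3 lay above the lowest double heterozygote pool. Its log2 ratios were -0.41, 0.04 and -0.11, with a mean of -0.16 ± 0.09 (moderated SE, n = 3). The second Krt8 probe, whose start is 132 bases away, had -0.25, 0.04 and -0.14, with a mean of -0.11 and the same sign on each array.

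Krt18, the type I partner of Krt8, had 36157, 40439.9 and 40973 intensity units in double null pools, against 41063, 37581 and 41818 in double heterozygote pools. These ranges overlapped over most of their length. Its log2 ratios were -0.18, 0.11 and -0.03, and their mean was -0.04 ± 0.07 (moderated SE, n = 3). Both partners were thus lowest on array 1 and highest on array 2, the order that Krt23 also showed. At the brightness of Krt18 the median log2 ratio of 233 similar genes was 0.04, and at that of the first Krt8 probe it was -0.02, over 321 genes.

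Krt7, a type II keratin of ducts and other simple epithelia, was measured by 2 probes whose starts are 4454 bases apart. The first had 4768, 4325 and 5343 units in double null pools, against 5667, 3670.5 and 5907 in double heterozygote pools. The second had 673, 592 and 686 units in double null pools, against 761, 468 and 644 in double heterozygote pools. The groups overlapped for both probes, and both were negative on array 1 and positive on array 2. Their log2 ratios were -0.25, 0.24 and -0.14 for the first and -0.18, 0.34 and 0.09 for the second. The means, -0.05 and 0.09, differed in sign.

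Krt19, a small type I keratin that lacks the usual tail domain, had 1199.7, 1135 and 1584 units in double null pools, against 1220.5, 1182 and 1435 in double heterozygote pools. Array 3 was the highest for both genotypes, and the ratios of -0.02, -0.06 and 0.14 averaged 0.02 ± 0.06 (moderated SE, n = 3). Krt20, a type I keratin of intestinal epithelium and urothelium, was well above background on 1 of 3 arrays in each channel and was not tested. Its intensities were 104, 89.9 and 111 in double null pools and 101, 78.3 and 98.7 in double heterozygote pools, and no fold is given for it.

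**Figure D2:**
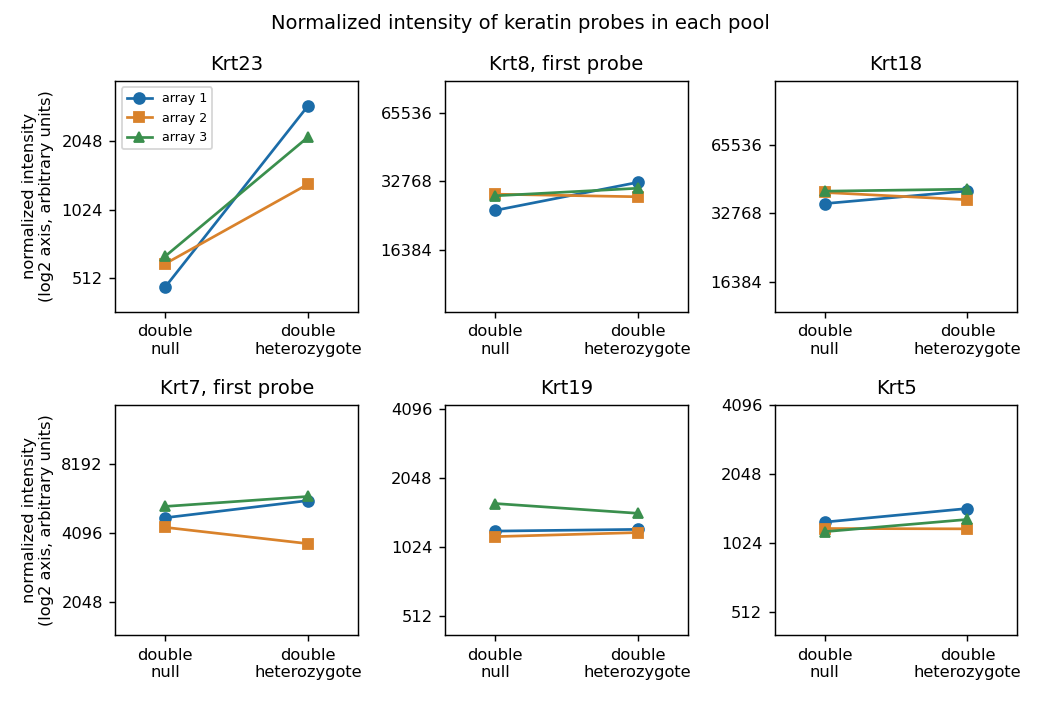
Normalized spot intensity (arbitrary units, log2 axis) of 6 keratin probes in the double null pool (left) and double heterozygote pool (right) of each array, joined by a line per array. All panels span the same number of log2 units, and Krt23 alone has every double null pool below every double heterozygote pool.

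The keratins of stratified epithelium, Krt5, Krt14, Krt15 and Krt17, had mean log2 ratios between -0.26 and 0.16. Krt5, the type II chain of basal epidermal cells, had 1262, 1182 and 1146 units in double null pools, against 1447, 1178 and 1296 in double heterozygote pools. The ranges overlapped through array 2, where both pools were nearly equal. Its log2 ratios were -0.20, 0.0047 and -0.18, with a mean of -0.12 ± 0.06 (moderated SE, n = 3).

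Krt14, the type I partner of Krt5, was close to background, with 155, 75.4 and 90.3 units in double null pools against 167, 115 and 95.1 in double heterozygote pools. Its ratios of -0.11, -0.61 and -0.08 averaged -0.26 ± 0.11 (moderated SE, n = 3), and array 2 set most of that mean. The scanner software's log2 ratio for that array was -0.12. The mean moved with the background treatment, to -0.41 with a normexp offset of 16, -0.01 with no background correction and -0.0087 with the scanner's processed signals, and it was -0.09 without array 2. The mm7 interval given for this probe, chr11:100312408-100313013, is longer than the probe itself.

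Krt15, a type I keratin of basal keratinocytes, had 714, 789 and 725 units in double null pools, against 671, 669.9 and 656 in double heterozygote pools. All double null pools were above all double heterozygote pools, as for 9.85% of genes, and the ratios were 0.09, 0.24 and 0.14. Their mean was 0.16 ± 0.05 (moderated SE, n = 3), the highest of the set. Krt17, a type I keratin of skin appendages and of injured epidermis, had ratios of -0.03, -0.0016 and 0.03 and a mean of -0.00022.

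**Figure D3:**
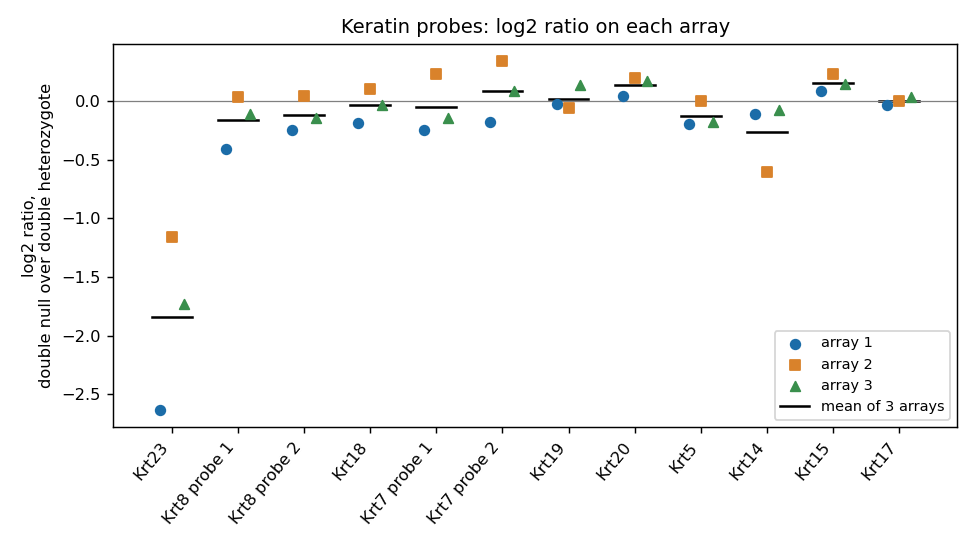
Log2 ratio (double null over double heterozygote, vertical axis) of the 12 keratin probes on each of the 3 arrays, with a bar at the mean. Krt23 lies at -2.63, -1.16 and -1.73, while the other 11 probes lie between -0.61 and 0.34.

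Of the 9 keratin genes tested, 1 passed limma's adjusted threshold of 0.05, and that gene was Krt23. Over all tested genes 2.44% passed, 0.552% lower and 1.89% higher in double null placodes. Since the set was chosen with this contrast known, nothing is read from that share. With median centring 8 keratins passed, in a setting that called 13358 of all 16850 tested genes and moved their median to 0.37. The Krt23 call was lost in 5 of 16 other settings, among them the scanner software's processed signals and the fit without array 3. The mean ratio of Krt23 lay between -2.18 and -1.44 in all 16, though several of these settings left it at its main value. The keratins with all double null levels below all double heterozygote levels numbered 1 (Krt23), against 7.84% of genes. Those with all levels above also numbered 1 (Krt15), against 9.85% of genes.

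The median log2 ratio of the 9 keratins was -0.05, and 7 of them were below 0. The median of the 8 without Krt23 was -0.04, and over all tested genes it was 0.0063 with 47.7% below 0. The signs of Krt18, Krt7, Krt19 and Krt17 changed in some of the 15 alternatives other than median centring. Those of Krt8 and Krt5 changed only with median centring. In that setting Krt8, Krt18, Krt7, Krt19 and Krt15 stood 0.21, 0.39, 0.08, 0.04 and 0.10 above the median of all tested genes. Krt5, Krt17, Krt14 and Krt23 stood below it, at -0.10, -0.29, -0.89 and -1.84 from it.

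Besides these genes the arrays held 36 other keratin genes with 42 probes. Of those probes, 32 were not well above background in either channel on any array, and 4 passed the filter. The tested genes were Krt10, the keratin of differentiating epidermal layers, at 0.10, Krt16, a keratin of appendages and wounds, at 0.11, Krt13, a keratin of mucosal epithelia, at -0.04, and Krt28, a hair root sheath keratin, at -0.01. By limma 0 of these 4 passed the adjusted threshold and 0 had an unadjusted p under 0.05, with adjusted p between 0.379 and 0.901.

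Krt23 lies among type I keratin and keratin-associated genes on chromosome 11. The 5 nearest tested protein-coding genes on either side had log2 ratios between -0.12 and 0.16, and none passed the threshold. On one side these were Krt10, Krt28, Smarce1, Igfbp4 and Top2a, and on the other Krtap4-6, Krtap9-1, Krtap31-1, Krt13 and Krt15. Smarce1, a subunit of a chromatin remodelling complex, and Igfbp4, which binds insulin-like growth factors, both had a mean of -0.12, with limma adjusted p of 0.283 and 0.315. None of these 10 neighbours had a value near that of Krt23.

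The array profile of Krt23 was compared with that of every other named gene by the Euclidean distance between their log2 ratios over the 3 arrays. Because Krt23 had the lowest mean ratio, this distance favours other genes with low ratios. The genes found nearest were all among those of lowest mean ratio, so no shared regulation can be read from them. Hmx3, a homeodomain transcription factor of the developing inner ear, was nearest, with ratios of -1.56, -0.52 and -0.94 and a distance of 1.48. Cldn4, a claudin of epithelial tight junctions, followed at 1.86, with ratios of -1.74, 0.17 and -0.79. Ipo7, a nuclear import receptor, stood at 1.88, Dusp16, a phosphatase of MAP kinases, at 1.96, and Kifc5b, a kinesin, at 2.01. Hmx3 and Dusp16 were negative on all 3 arrays, whereas the other three were positive on array 2. No other gene had a mean ratio as low as that of Krt23, and the means of even the nearest profiles lay well above it. On single arrays this did not always hold. Dusp16 was at -1.34 on array 2, below the -1.16 of Krt23, and Kifc5b was at -2.58 on array 1, close to its -2.63.

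Other genes of epithelium, of filament attachment and of neighbouring tissues were read from lists chosen with earlier results of these data known. Of 24 tested genes of surface ectoderm and simple epithelium, 18 were below 0, and their median log2 ratio was -0.09. By limma 0 of the 24 passed the adjusted threshold, and 7 had an unadjusted p under 0.05, a level that 22.2% of all tested genes reached. All 24 were well above background on every array in double null pools, and 23 in double heterozygote pools, so markers of the ectoderm named in the labels were present in both. The brightest of them were Sfn, an epithelial 14-3-3 protein, at 0.07, and Spint1, a protease inhibitor of epithelial surfaces, at -0.02, with adjusted p of 0.393 and 0.851. Other kept probes of Sfn differed in sign, with means of -0.03 and -0.14, and another of Spint1 had -0.04. Cdh1 and Cldn7, an adhesion protein and a tight junction protein of epithelium named after their values were seen, were at -0.30 and -0.38, with adjusted p of 0.0743 and 0.0825.

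Among desmosome and plakin genes, whose proteins anchor keratin filaments at the cell surface, 5 of 14 tested were below 0 and the median was 0.02. By limma 0 passed the adjusted threshold, and 1 had an unadjusted p under 0.05, against 22.2% of all tested genes. Pkp4, an armadillo protein of cell junctions, was at 0.07 (adjusted p = 0.457), and Itga6, an integrin subunit of hemidesmosomes, was at -0.05 (adjusted p = 0.546). Col17a1, Dsc3, Dsg3 and Eppk1 were not well above background in either channel on any array. Of 13 tested genes of other intermediate filaments, 5 were below 0. By limma 0 of them passed and 3 had an unadjusted p under 0.05, against the same 22.2% of all tested genes. Lmnb1, a nuclear lamin, was at 0.04 (adjusted p = 0.719), and Vim, the filament protein of mesenchyme, was at 0.20 (adjusted p = 0.279).

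Keratins and epithelial genes shared an order of arrays. Of the 9 tested keratins, 7 had their lowest ratio on array 1 and 6 their highest on array 2. The same was true of 17 and 18 of the 24 surface ectoderm genes, against 33.6% and 32.6% of all tested genes. Of the 14 desmosome and plakin genes, 10 were lowest on array 1 and 8 highest on array 2. A high ratio on array 2 was not particular to these lists. Of the 10 neural plate and hindbrain genes, 6 were highest on array 2, though 3 were lowest on array 1. These are counts of genes measured on the same 3 arrays, and genes are not replicates.

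Markers of other tissues also differed by array. The 9 tested blood and endothelial genes had median log2 ratios of 1.14, -0.02 and 0.18 on arrays 1, 2 and 3, and none was lowest on array 1. The summed level of the 12 genes on this list was 10887, 6519.7 and 13777 units in double null pools, against 6326, 6853 and 7543 in double heterozygote pools. By limma 0 of the 9 passed the adjusted threshold, and 4 had an unadjusted p under 0.05, a level that 22.2% of all tested genes reached. The brightest were Ramp2, a receptor subunit of vessels, at 0.13 (adjusted p = 0.469), and the embryonic globin Hbb-bh1 at 1.20 (adjusted p = 0.247). Their part in the keratin ratios was not tested.

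Head mesoderm markers had 4 of 10 tested genes below 0, and their median log2 ratio was 0.06. By limma 0 passed and 4 had an unadjusted p under 0.05, a level that 22.2% of all tested genes reached. The brightest of the list, the transcription factors Prrx2 and Tbx1 of head mesenchyme and mesoderm, were at -0.02 and -0.18, with adjusted p of 0.804 and 0.114. The summed level of the whole list was 41131, 34801 and 33738 units in double null pools and 40954, 37308 and 35894 in double heterozygote pools.

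All 10 neural plate and hindbrain markers were below 0 by their brightest probe, against 47.7% of all tested genes, with a median of -0.13. By limma 0 passed, and 3 had an unadjusted p under 0.05, a level that 22.2% of all tested genes reached. A second kept probe of Pax6 had a mean of 0.13, against -0.02 for the brightest, and that of Zic1 had -0.11. Egr2, a hindbrain segment transcription factor, was at -0.31, with an adjusted p of 0.0728. The summed level of this list was 93913, 85222 and 87630.1 units in double null pools, against 105966, 89638 and 106807 in double heterozygote pools.

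Of 9 tested endoderm genes 6 were below 0, and 1 passed, against 2.44% of all tested genes. Afp, Cer1 and Hhex were above 0, at 0.25, 0.10 and 0.34. The gene that passed came from a list chosen with earlier results of these data known, so its p-value is a description. It was Sox17, a transcription factor of endoderm and of endothelium, with ratios of -0.38, -0.61 and -0.62. The mean of Sox17 was -0.54 ± 0.06 (moderated SE, n = 3, limma adjusted p = 0.0139). Its second probe above background had a mean of -0.36. The call was lost in 6 of 16 other settings, among them the fits without array 2 (adjusted p = 0.06) and without array 3 (adjusted p = 0.121), while the mean stayed between -0.63 and -0.25. The summed level of the endoderm list was 6297, 6039.9 and 6857 units in double null pools and 5896, 6988 and 7719.6 in double heterozygote pools, and Ttr was not well above background on any array. The part of these tissues in the keratin ratios was not tested.

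**Figure D4:**
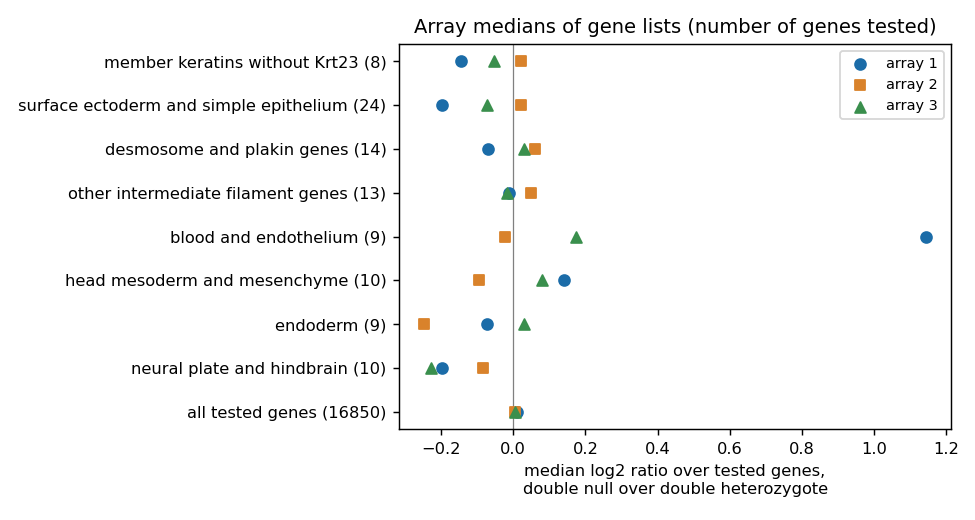
Median log2 ratio (double null over double heterozygote, horizontal axis) on each array for the keratins without Krt23, the gene lists and all tested genes, with the number of genes tested in brackets. The keratins and surface ectoderm genes are lowest on array 1 and highest on array 2, and the blood and endothelium list reaches 1.14 on array 1.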

How the data were processed

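Images were read with Agilent Feature Extraction 9.5.1.1, per the submitters' processing notes. The deposited scanner files give, for each channel, the mean intensity of a spot and the median intensity around it, and also the scanner's log10 ratio of Cy5 over Cy3. The deposited series table holds log2 ratios, which equalled the scanner's ratios within 2.01e-06. Intensities were corrected with normexp (offset 50) and normalized within arrays by loess (span 0.3, control spots at weight 0) in limma 3.58.1 and R 4.3.3. Channel levels were additionally scaled between arrays (Aquantile). Spots marked as outliers were left out, and a probe was kept if well above background in 1 channel on all 3 arrays. Each gene was represented by its brightest kept probe. Mean log2 ratios were tested against 0 with lmFit and eBayes, adjusted by Benjamini-Hochberg over 16850 genes at a threshold of 0.05. The fit was tested on simulated data. The number of arrays limits the precision.

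Names came from RefSeq records of GRCm38.p6. The keratin members and the gene lists were chosen with earlier results of these data known. Genes named were the members, keratins past the threshold (else the brightest and most changed), up to 4 called genes per list (else the 2 brightest), the 5 tested neighbours on each side of Krt23 and the 5 named genes nearest to it in array profile. 1 gene that met this rule is not reported here. Alternatives changed background correction, normalization, filters, the prior and the arrays used.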

Additional observations from a re-analysis of the deposited data

How the results depend on the processing

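The log2 ratio of Krt23 was the lowest of all tested genes in the main setting and in each of 16 alternatives. It lay between -2.18 and -1.44 in the alternatives. Krt23 was selected on this ratio, so its rank is a description. Alternatives that changed only the probe filter, the averaging of probes, outlier spots, the prior or the channel pairing left its mean at -1.84. Processed signals and the series table hold the same ratios for Krt23. The limits of these values are 3 arrays, 1 probe and unswapped dyes. Krt23 was not past the adjusted threshold with a normexp offset of 16, processed signals, the series table, loess with a span of 0.1 on probes above background, or without array 3. The 411 genes called by limma became 227 with the offset of 16 and 24 with the span of 0.1. They became 985 with an intensity trend in the prior, 61.6% of them higher against 77.4% in the main setting. With the scanner's processed signals and the series table limma called 0 genes, with 3227 and 3278 at an unadjusted p under 0.05. Median centring gave 13358 calls among 16850 genes, 89.1% of the calls higher, with the median of tested genes at 0.37. An unpaired fit of the separate channels, with no replicate block for the 2 pools of an array, gave 187 calls, 92.5% of them higher. By construction its Krt23 mean equals that of the main setting, -1.84. Leaving out 1 array at a time gave 68 to 276 calls. The 1 list gene called, Sox17, compares with 0 list genes under processed signals, the series table, the span of 0.1 and the separate channels, with 7 under the intensity trend, with 64 under median centring, and with 0 to 3 when an array was left out; the 3, without array 2, were all higher, so Sox17 was not among them. Keratins of the set called numbered 8 of 9 under median centring and 1 in the main setting. Other keratins called numbered 2 of 4 under median centring and 0 in the main setting. The cause of these shifts was not tested. Outside median centring, Krt8 ran from -0.26 to -0.04, Krt18 from -0.14 to 0.04, Krt14 from -0.41 to -0.0087 and Krt15 from 0.12 to 0.19 over 15 alternatives.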
